A study of Gallus gallus with 144 samples.

Results

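Chaperones are proteins that help other proteins fold, keep unfolded chains from clumping and take apart misfolded ones. HSP70 chaperones bind short stretches of unfolded protein in a cycle driven by ATP. DNAJ proteins start that cycle, and BAG proteins and the larger HSP70 relatives end it by releasing the nucleotide. HSP90 finishes signalling proteins, the ring-shaped chaperonins fold proteins inside a chamber, and FKBP proteins and cyclophilins speed the turning of bonds before proline. The start sites of these genes were mapped here in pooled chicken tissues.

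The members were promoter peaks, taken by the gene symbol that the authors gave them. Symbols beginning with DNAJA, DNAJB, DNAJC or HSP, the chaperonin subunits CCT2 to CCT8 and TCP1, BAG1 to BAG6, FKBP genes, PPIA to PPIH and PFDN genes were taken. This gave 192 promoter peaks of 78 genes, out of 24969 promoter peaks of 10437 genes and 153662 peaks in all. The authors had read the capped ends of RNA by CAGE in 144 libraries, made from brain, breast, heart, kidney, leg and liver of 24 chickens. Of these birds 12 were labelled fast growing and 12 slow growing. Each of the 12 groups of tissue and growth type held 12 libraries, and every bird gave all 6 tissues. The list analysed here pools all libraries and has no value for any of them, so no peak can be tied to a tissue or a growth type. It has no replicates, the depth is unknown, and a peak's height is not given. All results below are therefore counts, widths and distances of peaks on the GRCg6a build, and 95% Wilson intervals cover counting over genes or peaks only. The share of all genes is printed beside each share of chaperone genes as a description, with no test, and genes are not replicates of one another.

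The label of the set held for most of the symbols taken. Exceptions known from textbooks included HSPBAP1, which encodes a protein that binds a small heat shock protein. Others were HSPG2, the matrix protein perlecan, and HSPB11, which works in the transport system of cilia. This list of exceptions need not be complete. HSPG2 carried no promoter label. Gene symbols do not show whether a peak was used in stressed cells, and no stress treatment is given in the labels.

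Most chaperone symbols carried a promoter label. Of 105 protein-coding symbols of the RefSeq gene table that the name rule takes, 78 had a label (74.3%, Wilson interval 65.2 to 81.7). The share was 57.0% of all 14357 protein-coding symbols, those beginning with LOC left out. Only 8184 of the 10437 labelled genes had a name among these symbols, so labels under other names could not enter the 57.0%. With older symbols matched too, the shares were 74.3% and 57.7%. All 3 genes with HSP90 symbols were labelled, as were HSPD1 and HSPE1, all 5 BAG genes in the table and all 4 PFDN genes. In TRiC, the cytosolic chaperonin that folds actin and tubulin, 7 of 8 subunits were labelled and CCT3 was not. In the HSP70 family, here the HSPA genes and HSPH1, 8 of 10 genes were labelled. The DNAJ genes stood at 31 of 42, the FKBP genes at 8 of 13, the cyclophilins at 5 of 8 and the genes with HSPB symbols at 4 of 8, with HSPB11 among the 4.

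The 27 symbols without a label included some of the best known chaperones. They were HSPA5, the HSP70 of the endoplasmic reticulum, and HSPA9, the HSP70 of mitochondria, beside CCT3. Of the small heat shock genes HSPB1, HSPB7, HSPB7L and HSPB9 had none. The DNAJ genes without a label were DNAJA3, DNAJB8, DNAJB11, DNAJC5B, DNAJC5G, DNAJC13, DNAJC14, DNAJC21, DNAJC24, DNAJC25 and DNAJC30. The isomerase genes without one were FKBP1A, FKBP3, FKBP6, FKBP7, FKBP10, PPIC, PPIG and PPIH. The last was HSPG2. Only symbols were matched, so a gene whose promoter is named by Ensembl identifier alone would count among these 27. Such a promoter lay between TBCCD1 and PROCR, the nearest labelled neighbours of DNAJB11. Others lay between the nearest labelled neighbours of HSPA9, HSPB7, HSPB7L, HSPB9, DNAJB8, DNAJC5G, DNAJC25, DNAJC30, FKBP7, PPIG, PPIH and HSPG2. Neighbours here follow the gene order of GRCg7b. In the peak list, the promoter of CTNNA1 also lay in the stretch of HSPA9, and that of DDX25 in that of DNAJC30. Whether any promoter named by Ensembl identifier is that of the unlabelled gene was not tested.

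A missing label did not mean a stretch without peaks. For 25 of these 27 genes, labelled genes lay on both sides in the gene order of GRCg7b. In all 25 cases unlabelled peaks lay between those neighbours. The stretches ran from 9807 to 354662 bp, and other stretches of like length were not counted, so 25 of 25 is no result about these genes. Non-coding genes and symbols beginning with LOC were left out of the gene order used. In 5 cases the stretch held no other symbol of that order and no other label. That of HSPA5 ran over 9807 bp of chromosome 17 between RABEPK and GAPVD1 (9887712 to 9897520) and held 4 unlabelled peaks on the minus strand and 0 on the plus strand. The widest of these was 11 bp wide (9891404 to 9891414). The stretch of HSPB1, a small heat shock gene, ran over 48358 bp of chromosome 19 between YWHAG and SRRM3. It held 9 plus-strand and 13 minus-strand peaks, among them a plus-strand peak of 127 bp (4397762 to 4397888). The stretch of FKBP10, an isomerase of the collagen-making pathway, held 6 and 4 peaks between P3H4 and NT5C3B on chromosome 27. That of DNAJC21 held 2 and 4 between BRIX1 and AGXT2 on chromosome Z, and that of DNAJC5B 13 and 4 between PDE7A and TRIM55 on chromosome 2. The annotation of GRCg6a was not used here, so none of these peaks can be given to the unlabelled gene.

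Most chaperone genes had a few promoter peaks, close together. The 78 genes averaged 2.46 labelled peaks with a median of 2, against 2.39 and 2 over all labelled genes. A single peak was found for 22 genes, 2 to 4 peaks for 50 and 5 or more for 6 (7.69%, interval 3.57 to 15.8, beside 9.43% of all genes). Genes with 2 or more peaks made up 56 of 78 (71.8%, interval 61.0 to 80.6), beside 64.0% of all. The interval takes in the share of all genes. The median gap between neighbouring peaks of a chaperone gene was 8 bp, and 11 bp over all genes. Merging peaks up to 20 bp apart left 102 of the 192 peaks and 18 genes with 2 or more (23.1%, with 29.5% of all genes), so the count of peaks moves with how finely a start region is split.

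**Figure D1:**
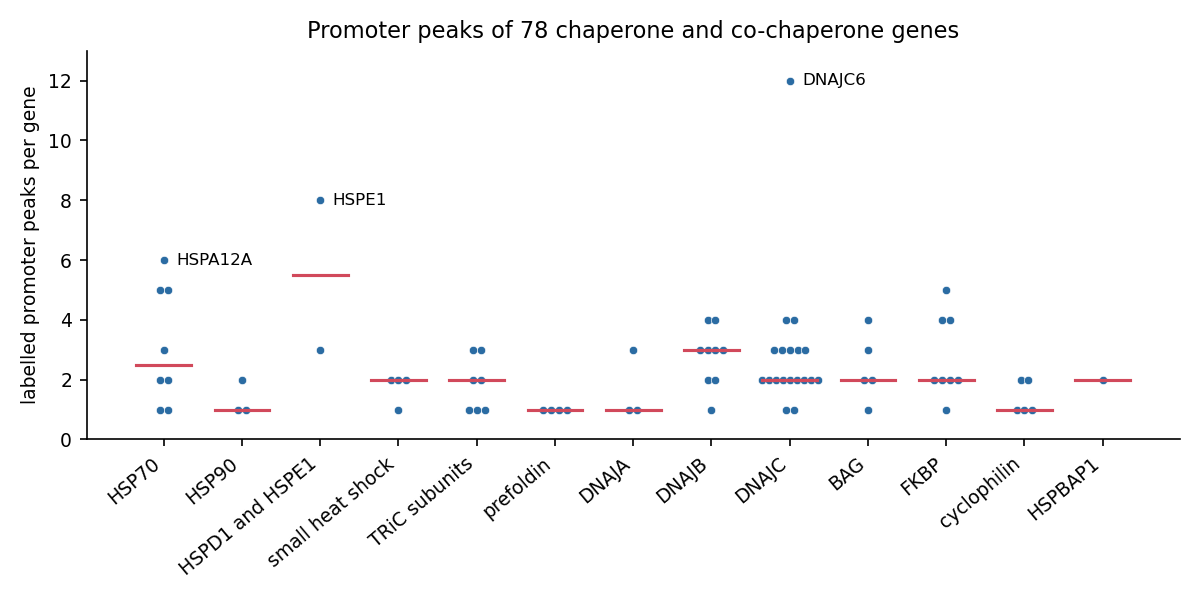
Labelled promoter peaks per gene (vertical axis, count) for each family of chaperones and co-chaperones (horizontal axis). Each point is 1 of 78 genes and the red line is the family median. DNAJC6 has 12 peaks, HSPE1 has 8 and HSPA12A has 6, while all 4 prefoldin genes with PFDN symbols have 1.

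**Figure D2:**
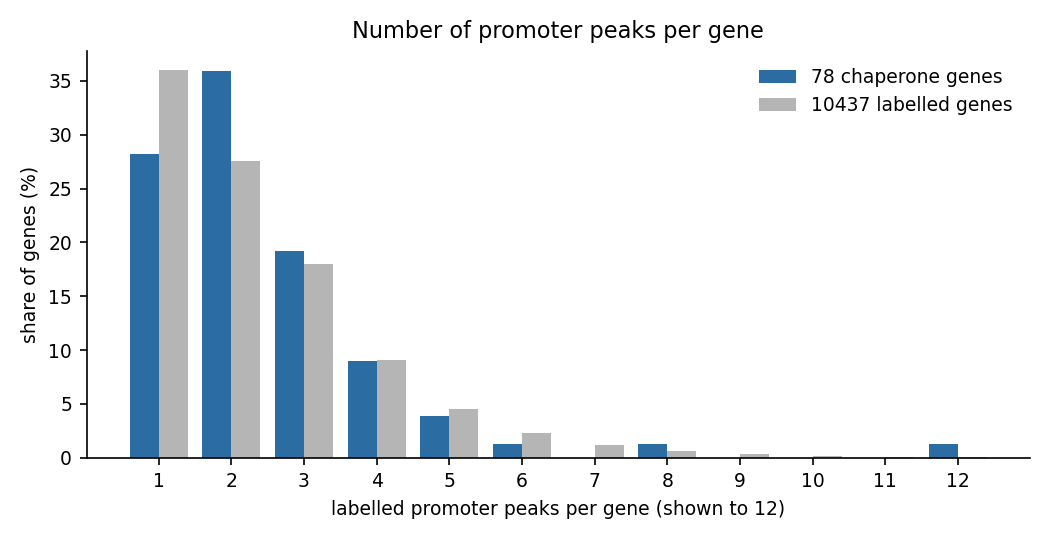
Share of genes (vertical axis, percent) by number of labelled promoter peaks per gene (horizontal axis, shown to 12), for 78 chaperone genes and all 10437 labelled genes. Both peak at 1 to 2 peaks, with 28.2% of chaperone genes and 36.0% of all genes at 1 peak and 35.9% and 27.6% at 2.

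In the HSP70 family the number and shape of the peaks differed from gene to gene. HSPA2, listed in the gene table under the older name HSP70, had 1 peak of 393 bp on chromosome 5 (53060076 to 53060468, minus strand), the widest of all chaperone promoter peaks. HSPA8, the HSP70 that cells make without stress, had a peak of 2 bp on chromosome 24 (3102872 to 3102873, plus strand) and a second of 163 bp (3103684 to 3103846), with representative positions 812 bp apart. HSPA12A, a distant relative of HSP70, had 6 peaks of 2 to 30 bp within 143 bp of chromosome 6. HSPH1 and HSPA4, large relatives that act as nucleotide exchange factors, had 5 peaks each, within 113 bp of chromosome 1 and 101 bp of chromosome 13. HSPA4L, the third of these exchange factors, had 2 peaks, 1 of 6 bp and 1 of 67 bp, on chromosome 4. HSPA13, found in the endoplasmic reticulum, had 3 and HSPA14, which works at the ribosome, had 1 of 4 bp.

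The genes with HSP90 symbols had few and very narrow labelled peaks, which was not particular to them. BAG3, PPIA, FKBP5, DNAJA4, PPIF and CCT7 each had only 1 labelled peak, 1 to 3 bp wide. The share of all labelled genes with a single peak this narrow was not counted, so no contrast with them is drawn. HSP90AA1, the stress-induced cytosolic form, had 1 peak of 3 bp on chromosome 5 (49685640 to 49685642, minus strand). HSP90B1, the form of the endoplasmic reticulum, also had 1 of 3 bp, on chromosome 1 (54718956 to 54718958, minus strand). HSP90AB1, the constitutive cytosolic form, had 2 peaks of 1 and 2 bp on chromosome 3, 118 bp apart. The median width over these 4 peaks was 2.5 bp, with a median of 8 bp over all 192 chaperone peaks and 9 bp over all promoter peaks. Wider unlabelled peaks lay downstream on the same strand for HSP90AA1, 19 bp wide at a distance of 696 bp, and for HSP90B1, 28 bp wide at 404 bp. No unlabelled peak lay on the strand of HSP90AB1 within 1000 bp.

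Across the set a wider unlabelled peak lay within 1000 bp on the same strand for 20 of 78 genes (25.6%, interval 17.3 to 36.3), beside 14.2% of all genes. It lay downstream of the nearest promoter peak for 15 and upstream for 5, and for 74.5% of such cases over all genes it was downstream. The widest was that near HSPE1, 167 bp (10233748 to 10233914), followed by one of 114 bp near DNAJC19, a mitochondrial import factor, 202 bp downstream of its nearest promoter peak. PPIA, cyclophilin A, had a labelled peak of 1 bp on chromosome 22 (position 5210347) and an unlabelled peak of 20 bp lying 632 bp upstream. HSPB3, a small heat shock gene of muscle, had a labelled peak of 4 bp and an unlabelled one of 39 bp lying 74 bp downstream. HSPB8, which works with BAG3 in clearing damaged proteins, had labelled peaks of 6 and 8 bp and an unlabelled one of 32 bp lying 162 bp upstream. CCT7 had a labelled peak of 3 bp and an unlabelled one of 18 bp only 14 bp downstream. This comparison was chosen after the peaks had been seen. Which of these peaks holds the main start site cannot be told without peak heights.

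**Figure D3:**
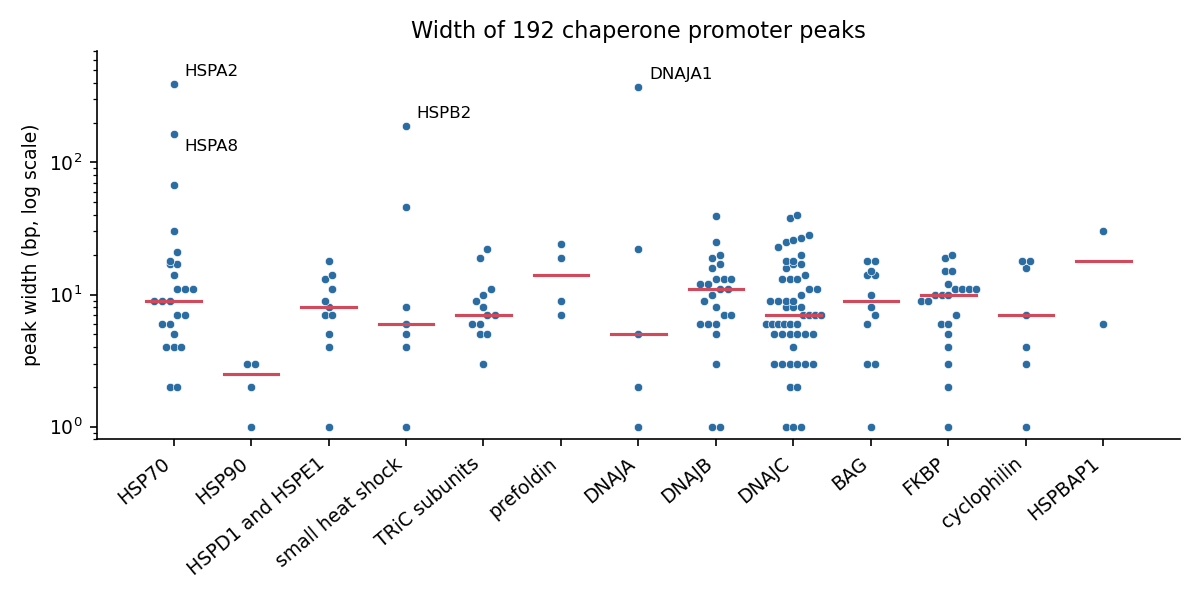
Width of each of the 192 chaperone promoter peaks (vertical axis, bp, log scale) by family (horizontal axis). Points are peaks and red lines are family medians. The 4 peaks over 100 bp belong to HSPA2, DNAJA1, HSPB2 and HSPA8, and the 4 peaks of the HSP90 genes are 1 to 3 bp wide.

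Most chaperone promoter peaks were a few bases wide, with a middle range of 5 to 14 bp, and 5 to 16 bp over all promoter peaks. A width of 1 bp was found for 12 peaks (6.25%, interval 3.61 to 10.6), beside 5.67% of all promoter peaks. Each of the 12 belonged to a different gene (15.4% of genes, beside 13.0% of all), and for BAG3 and PPIA it was the only labelled peak (2 genes, 2.56%, beside 4.68% of all). A width over 100 bp was found for 4 (2.08%, interval 0.813 to 5.23), beside 1.16%. After HSPA2, the widest were those of DNAJA1, a cytosolic partner of HSP70, with 373 bp on chromosome Z (70798039 to 70798411, plus strand), of HSPB2, a small heat shock protein of muscle, with 188 bp on chromosome 24, and of HSPA8. The next was the 67 bp peak of HSPA4L. In the 163 bp peak of HSPA8 the representative position was the first base, while in that of HSPA2 it lay 95 bp from the 5′ end. The distance for HSPA2, on the minus strand, rests on an assumed reading of the offset.

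HSPD1 and HSPE1 encode the ring and the lid of the mitochondrial chaperonin, and in mammals these genes lie head to head. In the chicken list they did too. HSPD1 had 3 promoter peaks on the minus strand of chromosome 7 (10231154 to 10231198), 8, 13 and 1 bp wide. HSPE1 began on the plus strand at 10231646, with 447 bp between the nearest edges. It had 8 peaks in 2 groups, the first of 2 peaks (5 and 14 bp wide, 10231646 to 10231675) and the second of 6 peaks (4 to 18 bp wide, 10233454 to 10233566), with 1788 bp between the nearest representative positions of the groups. The second group was followed on the plus strand by 4 unlabelled peaks, the first of them the 167 bp peak named above, and then, from 10239873, by the promoter of MOB4. Each of HSPD1 and HSPE1 was the nearest labelled neighbour of the other. No other 2 genes taken by the name rule, which leaves out CRYAB, stood in this relation.

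Separate promoters were found for few chaperone genes. Promoter peaks of a gene with representative positions over 100 bp apart were counted as separate. This was the case for 12 of 78 genes (15.4%, interval 9.03 to 25), beside 19.0% of all genes. With a distance over 500 bp asked for, the share was 6.41%, and 6.18% of all genes. In 4 of the 12 the distance was over 1000 bp (5.13% of the 78 genes, beside 5.05% of all). The greatest was that of HSPB2, with a peak of 1 bp at position 6259989 of chromosome 24 lying 19424 bp upstream of its 188 bp peak (6240472 to 6240659, minus strand). HSPB2 was the 1 chaperone gene spread over more than 10000 bp (1.28%, beside 2.30% of all). Its 188 bp peak lay 1381 bp from the plus-strand promoter of CRYAB, another small heat shock gene that is its divergent neighbour in mammals. The upstream peak lies on the far side of that start.

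DNAJC6, which encodes auxilin, the factor that strips clathrin coats in nerve endings, had the most promoter peaks, 12 on the plus strand of chromosome 8. They formed groups of 3, 6 and 3 peaks. The first 2 groups lay 173 bp apart, and the third started 7366 bp further downstream, giving a span of 7744 bp (28627657 to 28635400). DNAJB5 had 3 peaks on chromosome Z in 3 groups, 251 and 2402 bp apart. DNAJB2, known for its part in neurons, had 4 peaks in 3 groups, 418 and 296 bp apart along the minus strand of chromosome 7. The others had 2 groups each. The distance was 357 bp for FKBP8, an isomerase of the mitochondrial outer membrane, 287 bp for BAG4, 311 bp for DNAJB12, 389 bp for DNAJC7, a partner of both HSP70 and HSP90, and 118 bp for HSPA4L and for HSP90AB1. TRiC, PFDN, DNAJA and cyclophilin genes had no separate promoters in this list.

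**Figure D4:**
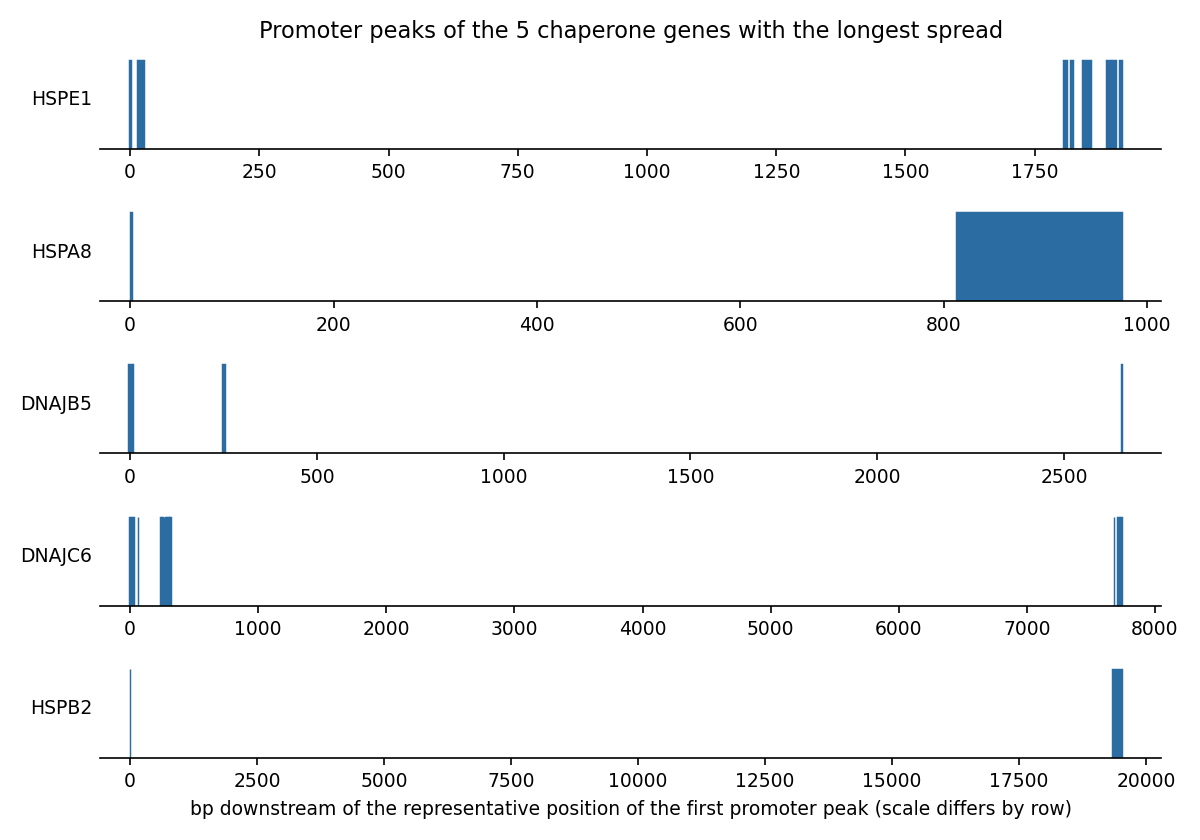
Promoter peaks (blue blocks, outlined so that 1 bp peaks remain visible) of the 5 chaperone genes with the longest spread, by distance in bp downstream of the representative position of the first peak (horizontal axis, a different scale in each row). HSPB2 spans 19518 bp with 2 peaks, DNAJC6 7744 bp with 12, DNAJB5 2659 bp with 3, HSPE1 1921 bp with 8 and HSPA8 975 bp with 2.

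In TRiC, CCT5 and CCT6A had 3 peaks, CCT2 and CCT4 had 2, and CCT7, CCT8 and TCP1 had 1. All 13 lay between 3 and 22 bp in width. PFDN1, PFDN2, PFDN4 and PFDN5, subunits of prefoldin, which passes new actin and tubulin to TRiC, had 1 peak each, of 7, 19, 24 and 9 bp. Among the DNAJ genes DNAJB1, the cytosolic partner of HSP70 in the stress response, had 4 peaks within 91 bp of chromosome 30. DNAJC1, a membrane protein of the endoplasmic reticulum, and DNAJC28 also had 4, within 63 and 56 bp. DNAJB9 and DNAJC10, both of the endoplasmic reticulum, had 3, as had DNAJB4 and DNAJA2. DNAJA4 had 1 of 2 bp. The DNAJ genes not named in this account had 1 to 3 peaks each. Of the BAG genes, which release nucleotide from HSP70, BAG4 had 4 peaks, BAG1 had 3, BAG2 and BAG5 had 2 and BAG3 had 1. FKBP14, an isomerase of the endoplasmic reticulum, had 5 peaks within 56 bp of chromosome 2. FKBP8 and FKBP15 had 4, and FKBP11 and FKBP1B, a regulator of calcium release in heart muscle, had 2. FKBP4 and FKBP9 also had 2, and FKBP5 had 1 of 2 bp. PPIB, the cyclophilin of the endoplasmic reticulum, and PPIE, of the splicing machinery, had 2, and PPID, an HSP90 partner, PPIF, of the mitochondrial matrix, and PPIA had 1.

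Opposite-strand peaks stood upstream of many chaperone promoters. A divergent partner, that is, an opposite-strand peak whose representative position lay 0 to 400 bp upstream of that of a promoter peak, was found for 25 of 78 genes (32.1%, interval 22.7 to 43.0), beside 22.1% of all genes. The median distance was 128 bp, and 111 bp over all genes. By family these were 11 of 31 DNAJ genes, 5 of 8 FKBP genes, 2 of 7 TRiC genes and 2 of 5 BAG genes. There was 1 each of 8 HSP70, 3 HSP90, 4 HSPB and 4 PFDN genes. HSPBAP1 had one, while the 5 cyclophilins, HSPD1 and HSPE1 had 0. The partner of 15 genes was a labelled promoter of another gene (19.2%, interval 12.0 to 29.3), beside 11.1% of all genes, and for 10 it was unlabelled only.

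The 15 labelled pairs joined chaperone genes to genes of varied function. The closest was HSPBAP1 with the transporter gene SLC49A4, 1 bp apart. HSPB11 and LRRC42 lay 14 bp apart. DNAJC2, a chaperone of the ribosome, lay 38 bp from PSMC2, a proteasome ATPase subunit. DNAJB9 lay 54 bp from THAP5, FKBP8 58 bp from KXD1, DNAJC16 58 bp from CASP9, the initiator caspase of the mitochondrial death pathway, and CCT5 60 bp from ATPSCKMT. Further apart were BAG5 and COA8 (82 bp), PFDN2 and NIT1 (120 bp), DNAJC7 and NKIRAS2 (127 bp), FKBP15 and the copper transporter SLC31A1 (134 bp), DNAJB4 and FUBP1 (257 bp), and FKBP14 and PLEKHA8 (397 bp). The partners of DNAJC11 (152 bp) and HSP90AA1 (358 bp) were named only by Ensembl identifier. HSPD1 and HSPE1, with 451 bp between their nearest representative positions, fell just outside the limit of 400 bp. A labelled promoter of another gene lay within 1000 bp of the peaks of 21 chaperone genes (26.9%, interval 18.3 to 37.7), beside 15.0% of all. The nearest one was on the opposite strand for all 21, as it was in 93.7% of such cases over all genes. Within 10000 bp one lay near 39 of 78 chaperone genes (interval 39.2 to 60.8%), beside 38.8% of all genes. The nearest was on the opposite strand for 30 of the 39, beside 68.3% of such cases over all genes.

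Unlabelled peaks past the promoter leaned to the strand of the gene for some members and to the other strand for others. Unlabelled peaks were counted in a window that began 500 bp and ended 20000 bp after the first promoter peak. The median chaperone gene had 2 on its own strand and 2 on the opposite strand, with 1 and 1 over all genes. The own strand had more in 40 of 78 genes (51.3%, interval 40.4 to 62.1), beside 41.8% of all genes, and fewer in 23 (29.5%, interval 20.5 to 40.4), beside 36.2%. The own strand had more in 29.5% of chaperone genes in windows to 5000 bp, with 27.0% of all, and in 44.9% in windows to 50000 bp, with 44.8% of all. In the window to 20000 bp, an excess of 5 or more was found in 9 genes (11.5%, interval 6.19 to 20.5), beside 7.71% of all. No unlabelled peak on either strand was found for 3 genes (3.85%, beside 9.73% of all). Windows of neighbouring genes overlap, and a peak in a window need not belong to the gene whose promoter sets it.

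Of the 11 HSP70 and HSP90 genes, 9 had more peaks on their own strand, beside 41.8% of all genes. The count was 6 in windows to 5000 bp, beside 27.0%, and 9 in windows to 50000 bp, beside 44.8%. By family the 9 were 7 of 8 HSP70 and 2 of 3 HSP90 genes. The lean was not particular to the HSP70 and HSP90 genes, with 5 of 8 FKBP and 6 of 9 DNAJB genes. It was found in 6 of 19 DNAJC genes. Among the 9, the size of the lean varied. HSPA13, HSPA14, HSPA4, HSPH1 and HSPA4L leaned by few peaks. HSPA13 and HSPA14 had 3 own-strand and 0 opposite-strand peaks each, HSPA4 2 and 0, and HSPH1 and HSPA4L 1 and 0 each. Labelled own-strand promoters lay in the windows of HSPA4 (RNF14) and HSPA14 (SUV39H2). An opposite-strand one lay in that of HSP90B1 (C1H12ORF73). HSP90AA1 had 18 own-strand and 4 opposite-strand peaks, HSP90B1 12 and 1, HSPA2 8 and 1, and HSPA8 6 and 2. The window of HSPA8 also held the labelled start of SNORD14, a small nucleolar RNA. HSP90AB1 had 1 and 2, and HSPA12A 0 and 1. Outside the HSP70 and HSP90 families, DNAJC18 had 18 and 0, PPIA 11 and 2, and BAG3 9 and 3. The window of PPIA held the own-strand promoter of NUDCD3, 1793 bp from the labelled peak of PPIA. FKBP5, the HSP90 partner of steroid receptors, had 9 and 2. PFDN2 had 22 and 6, with labelled promoters of other genes on both strands of its window. In TRiC the opposite strand had more in 4 of 7 genes. CCT6A had 4 and 11, and there the promoter of SUMF2 lay on its own strand and that of CHCHD2P9 on the opposite strand. The largest difference of any chaperone gene was that of PFDN5, with 13 own-strand and 44 opposite-strand peaks. Its window held the opposite-strand promoter of PFKM, the muscle form of phosphofructokinase, and that of ASB8 on its own strand. The peaks therefore cannot be given to PFDN5. DNAJB2 had 2 and 15, with another labelled promoter on the opposite strand.

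**Figure D5:**
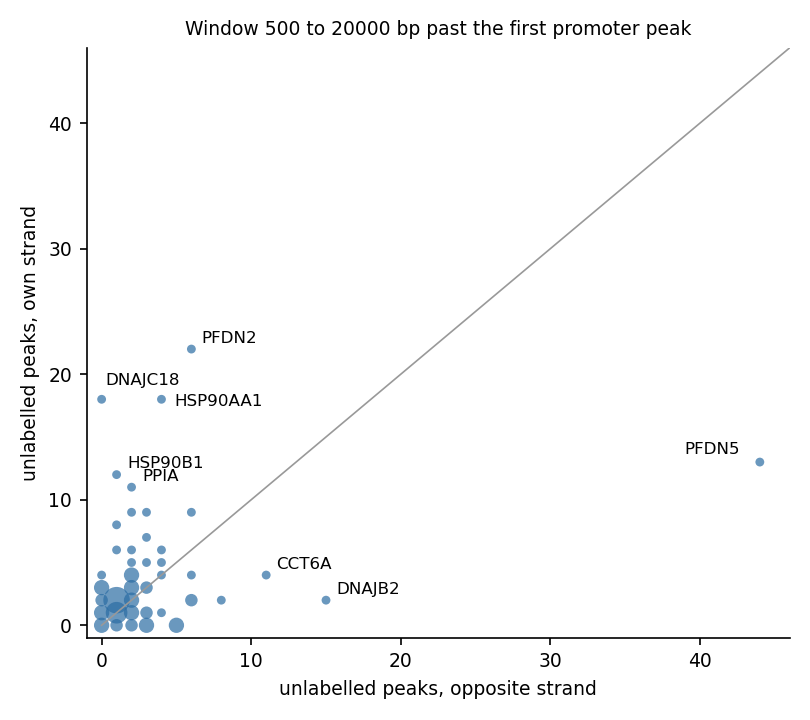
Unlabelled peaks in the window of 500 to 20000 bp after each chaperone gene's first promoter, on the gene's own strand (vertical axis, count) and on the opposite strand (horizontal axis, count). Point area grows with the number of genes at the same place, and the line marks equal counts. PFDN5 lies far below the line with 13 and 44 peaks, and PFDN2, DNAJC18, HSP90AA1 and HSP90B1 lie above it.

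The genes lay on 27 chromosomes, 34 on the plus and 44 on the minus strand. The strand split over all genes was not counted. On chromosomes 1 to 5 and Z lay 36 of 78 (46.2%, beside 48.6% of all), on 6 to 10 lay 17 (21.8%, beside 15.2%), and on the small chromosomes 11 to 33 lay 25 (32.1%, beside 36.0%). All 3 intervals took in the share of all genes.

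Partners and regulators of chaperones outside the name rule were counted in the same way. A list of 56 such genes was used. Of the 50 with a symbol in the RefSeq gene list, 34 were labelled (68.0%, beside 57.0% of all symbols). Of these 34 genes 28 had 2 or more promoter peaks, beside 64.0% of all labelled genes, and they averaged 2.62 peaks, with 2.39 over all. The heat shock factors HSF2 and HSF3, which bind the promoters of chaperone genes, had 4 and 2. HSF1, which is not among the 50, had 3. The HSP90 co-chaperones AHSA1 and PTGES3 had 6 and CDC37 had 5. In the endoplasmic reticulum ERP44 had 6, and PDIA4, SERPINH1, a collagen chaperone, and SIL1, the exchange factor of HSPA5, had 4 each. CALR and CRYAB had 1. VBP1, a prefoldin subunit without a PFDN symbol, had 2, and TRAP1, the mitochondrial HSP90, had 3. In the response to unfolded proteins, the sensors ERN1 and EIF2AK3 had 2 and 3 peaks and SDF2L1, a folding factor of the endoplasmic reticulum, had 3, while XBP1, a transcription factor of that response, had no label. The other genes among the 16 without one were HSF4, HYOU1, CRYAA, PDIA3, PDIA5, STIP1, which joins HSP70 to HSP90, CHORDC1, UNC45A, GRPEL1, PDRG1, PDCL3, TOMM34, CLGN, TOR1B and SUGT1.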

How the data were processed

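The authors made CAGE libraries with molecular identifiers, per the labels' protocols. The submitters' processing notes name UMI-tools 1.1.4, STAR 2.7.9a and, as build, GRCg6a. How peaks were called and promoters labelled is not stated there or in the labels. The deposited list holds start, end, strand, a representative position, a promoter label and a gene name for each peak. The score column of the deposited list is 1 in every row, as is 1 further column, and neither was used. Starts are printed 1-based. That the representative position is an offset within the peak was inferred, since it was always below the width. That it counts from the lower coordinate on both strands, rather than from the 5′ end, was assumed. Representative positions of minus-strand peaks, and distances from them, depend on this.

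Symbols were matched to the RefSeq table of GRCg7b, used for names and gene order. Symbol shares and gene order used its protein-coding genes only, without names beginning with LOC. Of the 78 genes, 75 lay on the same chromosome in GRCg7b, and DNAJC22, FKBP11 and PFDN5 on one numbered differently. For 10430 genes all promoters lay on 1 sequence and strand, and distances used these. No library has a column, so growth types and tissues were not compared. No sequence was used, so planned motif counts were not run. Members and lists were chosen with earlier results of these data known, and no test was made. Families, partners and named genes followed fixed rules: all members of the HSP, TRiC and prefoldin families, up to 5 of each other family by peak number, and the extremes of width, spread and strand difference. DNAJB12, DNAJC19, FKBP4, FKBP5 and FKBP9 lay outside these rules and were named after their values were seen. Pooling HSP70 with HSP90 genes for the strand counts also lay outside the rules. Python 3.11.15, numpy 2.4.6, pandas 2.3.3, scipy 1.17.1 and matplotlib 3.10.9 were used, and the counters were tested on simulated data.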

Additional observations from a re-analysis of the deposited data

How the results depend on the processing

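The 7 results were recomputed under 21 alternatives, and 16 of these left the value inside its interval or within 1.5 times. Merging promoter peaks up to 20 bp apart lowered the share of genes with 2 or more peaks to 23.1% and the mean per gene to 1.31, with 29.5% and 1.43 over all genes. The widest peak of each gene had a median of 15.5 bp, with 15.0 bp over all. Separate promoters over 500 bp apart were found for 6.41% of chaperone genes, with 6.18% of all. In windows of 500 to 5000 bp the own strand had more unlabelled peaks in 29.5%, with 27.0% of all. In windows to 50000 bp the share was 44.9%, with 44.8% of all, so the difference from all genes seen at 20000 bp was smaller in both. Divergent partners stood at 23.1% within 200 bp and 39.7% within 1000 bp, with 17.0% and 27.6% of all. The gap between peak edges, added after seeing the data, gave 14.1% with separate promoters, with 17.9% of all. No paired analysis was possible because no column belongs to a library, and no replicate could be left out. Motif alternatives were not run. Depth and peak height are unknown, so a missing label or peak does not show that a gene was silent.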
